A study of Mus musculus with 48 samples.

Results

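Joint fibroblasts of mice with collagen-induced arthritis (CIA) and of healthy mice were examined by Seq-Well single-cell RNA sequencing. They were the cells that the deposited annotation labels as fibroblasts in the joint samples, and they comprised 603 of 2230 annotated joint cells and of 12096 annotated cells in the series. Of these, 192 came from 3 healthy mice (H3, H4 and H7) and 411 from 5 CIA mice (S1, S3, S5, S6 and S8). All animals were male DBA1/J mice, young adults by the ages in the study's methods. The CIA mice had received 100 µg of bovine collagen II in complete Freund's adjuvant near the tail base, with a booster on day 20 in incomplete adjuvant. Per the study's methods, phosphate-buffered saline was injected into the controls, so effects of adjuvant and of collagen cannot be told apart. Joint pieces of both groups had been cryopreserved, thawed and digested with collagenase IV and DNase I. In the labels, H3, S1 and S3 carry the mark 2CIA and the other mice the mark CIA. The labels do not explain these marks, and they were taken here, as an assumption, for separate experiments. S1 and S3 had arthritis scores of 8, S5 of 4 to 5, S6 of 3 to 4 and S8 of 2 to 3, so severity and this mark cannot be told apart among the CIA mice.

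Fibroblasts build and turn over the extracellular matrix of the synovium, tendon and capsule, and those of the synovial lining secrete lubricin and hyaluronan into the joint fluid. In arthritis, synovial fibroblasts are known as a source of matrix metalloproteinases, chemokines and cytokines, through which they take part in cartilage breakdown and in the recruitment of leukocytes. CIA is an autoimmune model in which immunity to type II collagen, the main collagen of cartilage, brings about polyarthritis.

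The labelled cells were first described by 6 marker genes. The study had used these genes, among others, to check its labels, so they are no separate support for the label. Their summed level in the joint fibroblasts was 43253 CPM (UMIs, the unique molecular identifiers that count transcripts, scaled to a common library total), against 7988 CPM in endothelial cells, the highest of the 9 other joint cell types. Col1a2, a chain of type I collagen, was at 12539 CPM in fibroblasts and 1875 CPM in endothelial cells. A Col1a2 UMI was found in 86.6% of fibroblasts (median 965 UMIs per cell) and in 17.4% of granulocytes (median 830 UMIs per cell), a cell type that should lack it, so that part of the UMIs of any gene here can come from free RNA.

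The number of cells decided which mice could be compared. H3 gave 73 fibroblasts, H4 81, H7 38, S1 182, S3 56 and S5 160, whereas S6 gave 9 and S8 gave 4. Tests between groups used the 6 mice with at least 10 cells, 590 cells in all. H7 with 38 cells was the member just inside this limit and S6 with 9 the one just outside. UMIs summed over the fibroblasts of a mouse came to 63184 in H3, 64587 in H4 and 38642 in H7, and to 214573 in S1, 68632 in S3 and 282053 in S5. A median fibroblast held 679 to 838 UMIs in the healthy mice and 1020.5 to 1471.5 UMIs in the CIA mice, so depth per cell moved with the groups and its part in the results was not tested. No barcode of a fibroblast was found in more than 1 joint library (0 of 603). In healthy mouse H4, haemoglobin and other erythroid genes held 136202 CPM, against 9730 to 21045 CPM in the other 5 mice.

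The first question was which genes differed between CIA and healthy fibroblasts when the mouse is the replicate. Genes of acute phase proteins, a matrix-degrading enzyme, matricellular proteins and neutrophil products were higher in CIA, and genes of an actin-severing protein, an extracellular peroxidase and a few secreted glycoproteins were lower. Of 1014 genes tested with the quasi-likelihood test of edgeR, 12 (1.18%) rose and 5 (0.493%) fell at an adjusted p under 0.05. Without adjustment, 107 genes (10.6%) were higher and 73 (7.2%) were lower at p under 0.05. Every CIA mouse lay above every healthy mouse for 160 genes (15.8%) and below for 89 (8.78%), and all 17 called genes were among these. The median log2 fold change over all genes tested was 0.063, and the biological coefficient of variation was 0.42. The 17 calls were sensitive to single healthy mice: 0 genes were called without H4, 0 without H7 and 1 without H3, whereas 43 were called without S3. With the experiment as a term 24 genes were called, within the experiment CIA (H4 and H7 against S5) 73, and within 2CIA (H3 against S1 and S3) 1, and the 17 genes kept their direction in each of these fits that tested them. In bulk sums such as these, fewer cells of a kind and less RNA per cell cannot be told apart.

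**Figure D1:**
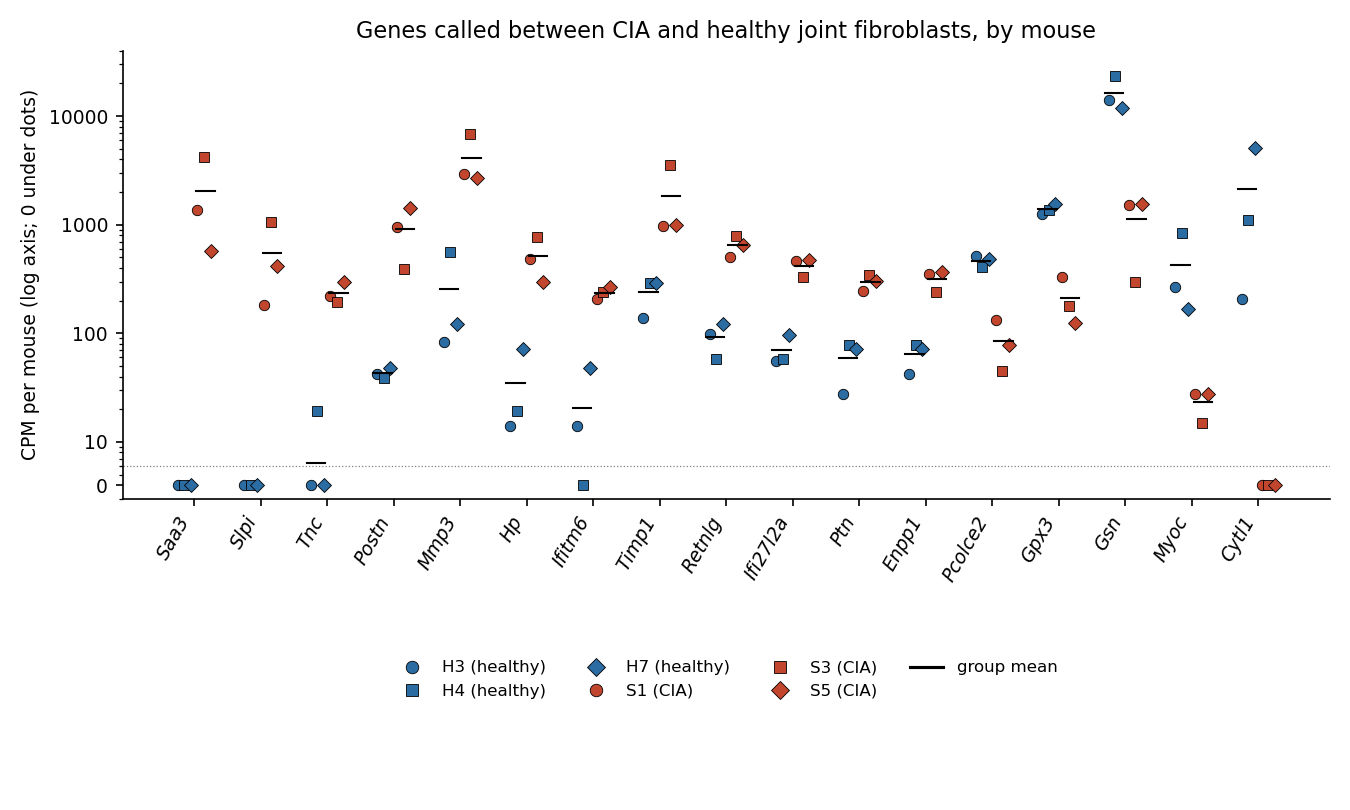
Level of the 17 called genes in joint fibroblasts of each mouse, in CPM scaled by TMM on a log axis, with a value of 0 drawn below the dotted line. Points are the 3 healthy mice (blue) and the 3 CIA mice (red), short lines are group means, and the groups do not overlap for any of the genes.

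Matricellular proteins sit in the matrix without bearing load and modulate how cells attach and move. Postn (periostin, chr3:54359267-54391041, GRCm38) was at 41.8 CPM in H3, 38.7 in H4 and 48.3 in H7, and at 944 in S1, 389 in S3 and 1434 in S5. Its lowest CIA mouse was far above its highest healthy mouse, and it rose by a log2 fold change of 4.39 ± 0.62 (SE, n = 3 and 3 mice, edgeR adjusted p = 0.0276). Tnc (tenascin C, chr4:63959785-64047015) was at 0, 19.4 and 0 CPM in H3, H4 and H7, the middle value being a single UMI, and at 220, 194 and 294 CPM in S1, S3 and S5. The groups did not overlap, and the log2 fold change was 5.05 ± 0.85 (edgeR adjusted p = 0.0281). Of the 21 matricellular genes listed, 15 were tested, 2 rose (Postn and Tnc) and 0 fell at the adjusted threshold, and the median log2 fold change of the 15 was 0.45. At p under 0.05 without adjustment, 3 members were higher and 3 lower, so the list did not move one way. The shares over all genes tested were 10.6% and 7.2%. Comp, a cartilage and tendon matrix protein, was at 641, 4412 and 2703 CPM in the healthy mice and 1797, 150 and 1088 CPM in the CIA mice (log2 fold change -1.30 ± 0.81, edgeR adjusted p = 0.441).

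Enzymes that cut matrix, and their inhibitors, were measured next. Mmp3 (stromelysin 1, which cleaves proteoglycans and activates other metalloproteinases, chr9:7445822-7455975) was at 83.6, 561 and 121 CPM in H3, H4 and H7 and at 2925, 6789 and 2693 CPM in S1, S3 and S5. It rose by a log2 fold change of 4.03 ± 0.72 (edgeR adjusted p = 0.0282), with S3 the highest and with no overlap between groups. Timp1, an inhibitor of metalloproteinases, was at 139, 290 and 290 CPM in the healthy mice and 972, 3574 and 989 CPM in the CIA mice. It rose by 2.91 ± 0.61 (edgeR adjusted p = 0.0495), close to the threshold. Of 10 metalloproteinases listed, 3 were tested and 1 passed, and the median of the 3 was 0.96. The membrane-bound collagenase Mmp14 had a log2 fold change of 0.96 ± 0.42 (edgeR adjusted p = 0.272) and the gelatinase Mmp2 of 0.46 ± 0.61 (edgeR adjusted p = 0.731). Among 9 tested protease inhibitors, Timp1 and Slpi rose, and the median was -0.69. At an unadjusted p under 0.05, 4 members were lower, against 7.2% of all genes tested. Cst3, the cysteine protease inhibitor cystatin C, was at 5562, 17495 and 13344 CPM in the healthy and 3896, 1286 and 2905 CPM in the CIA mice. Its groups did not overlap, but its log2 fold change of -2.16 ± 0.59 did not pass (edgeR adjusted p = 0.129).

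Acute phase proteins are secreted in inflammation, mainly by the liver but also by local stromal cells. Hp (haptoglobin, which binds free haemoglobin) was at 13.9, 19.4 and 72.4 CPM in the healthy mice and at 481, 778 and 298 CPM in S1, S3 and S5, and rose by a log2 fold change of 3.93 ± 0.68 (edgeR adjusted p = 0.0282). Saa3, a serum amyloid A protein, and Slpi, an inhibitor of neutrophil elastase, had no UMI in any healthy mouse. Against a floor of 3 UMIs over the healthy group, CIA fibroblasts held at least 113-fold more Saa3 and at least 30.5-fold more Slpi. Of 9 acute phase genes listed, 4 were tested and 3 rose, with a median log2 fold change of 6.48, or 4.43 with Saa3 and Slpi at their bounds. Lbp, which carries bacterial lipopolysaccharide to its receptor, was at 139, 232 and 48.3 CPM in the healthy and 110, 74.8 and 239 CPM in the CIA mice.

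The sequences at the starts of Saa3, Slpi and Mmp3 are shown because these genes were among the largest increases and their levels were highest in the same mouse, S3. Each line gives 250 bases before to 50 bases after the RefSeq transcript start (GRCm38.p6), 5′ to 3′ on the strand of the gene. Capitals mark matches on either strand to TTGCNNAA, a C/EBP-type motif, and to TGANTCA, an AP-1-type site.
Saa3, chr7:46715627-46715926, minus strand: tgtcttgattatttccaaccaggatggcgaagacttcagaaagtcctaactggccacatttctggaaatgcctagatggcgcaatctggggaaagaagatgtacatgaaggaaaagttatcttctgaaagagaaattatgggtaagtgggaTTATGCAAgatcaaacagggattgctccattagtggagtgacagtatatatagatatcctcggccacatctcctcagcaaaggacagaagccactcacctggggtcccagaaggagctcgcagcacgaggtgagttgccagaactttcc
Slpi, chr2:164356458-164356757, minus strand: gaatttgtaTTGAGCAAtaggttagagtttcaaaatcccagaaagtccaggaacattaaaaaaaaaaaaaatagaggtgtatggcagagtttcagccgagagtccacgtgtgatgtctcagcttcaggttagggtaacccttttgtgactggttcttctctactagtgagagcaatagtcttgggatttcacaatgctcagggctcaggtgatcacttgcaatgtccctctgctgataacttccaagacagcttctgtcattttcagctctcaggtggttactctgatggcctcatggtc
Mmp3, chr9:7445572-7445871, plus strand: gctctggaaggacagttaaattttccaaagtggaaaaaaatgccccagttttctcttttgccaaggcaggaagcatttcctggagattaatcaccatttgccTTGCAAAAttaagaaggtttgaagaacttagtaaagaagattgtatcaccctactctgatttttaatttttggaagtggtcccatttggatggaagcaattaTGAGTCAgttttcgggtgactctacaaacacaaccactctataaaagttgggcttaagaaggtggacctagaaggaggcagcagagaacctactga
The match to TTGCNNAA began 99 bases before the start in Saa3, 241 bases before it in Slpi and 148 bases before it in Mmp3, and the match to TGANTCA began 46 bases before it in Mmp3. Of the 12 genes that rose, 10 were matched to a start window, and a gene counted when any of its windows matched. TTGCNNAA was found in 6 of the 10 (Postn, Retnlg, Saa3, Mmp3, Slpi and Enpp1) and in 0 of the 5 genes that fell. Over all genes it was found in 12.2% of 27025 (10.8% of 32851 windows). TGANTCA was found in 1 of the 10 and 0 of the 5, and in 8.97% of all genes (7.81% of windows). The motifs were chosen after the windows were seen, and a match describes these letters and not a site of binding.

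Products of neutrophils also differed, and these cells are abundant in inflamed joints. Retnlg (resistin-like gamma, made by granulocytes) was at 97.6, 58.1 and 121 CPM in the healthy mice and at 509, 793 and 650 CPM in the CIA mice, and rose by a log2 fold change of 2.76 ± 0.44 (edgeR adjusted p = 0.0276). Ifitm6, a transmembrane protein of myeloid cells, rose by 3.57 ± 0.74 (edgeR adjusted p = 0.0482). All 5 tested members of the granulocyte marker list were higher at an unadjusted p under 0.05, against 10.6% of all genes tested. For 4 of the 5, every CIA mouse lay above every healthy mouse, against 15.8% of all genes tested. S100a8, a calcium-binding protein of granulocytes, was at 2258, 1258 and 3668 CPM in the healthy mice and 9237, 22595 and 13008 CPM in the CIA mice (log2 fold change 2.57 ± 0.60, edgeR adjusted p = 0.0851). All 7 markers together held 1800 to 5743 CPM in healthy and 13697 to 31118 CPM in CIA fibroblasts. A granulocyte UMI was present in 72 of 73 cells of H3, 49 of 81 of H4 and 37 of 38 of H7, and in all 182, 56 and 160 cells of S1, S3 and S5.

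The acute phase genes were set against this granulocyte RNA by their ratio to S100a8 within each mouse. In granulocytes of S1, S3 and S5, Saa3 had 0.937, 0.874 and 0.996 UMIs per 1000 S100a8 UMIs. In fibroblasts of the same mice the ratio was 146, 188 and 43.7. The ratio of Slpi was 1.53, 0.437 and 1.37 in granulocytes and 19.9, 47.0 and 32.1 in fibroblasts, and that of Hp was 6.24, 2.19 and 5.67 against 52.1, 34.4 and 22.9. For these 3 genes, every fibroblast value exceeded every granulocyte value. Against other cell types the 3 genes differed. The Saa3 ratio was 8.81, 20.6 and 8.44 in macrophages and 4.42, 17.8 and 3.80 in T cells, below every fibroblast value. The Slpi ratio was 17.6, 5.16 and 24.3 in macrophages and 33.1, 10.7 and 9.51 in T cells, so that in S1 the T cells, with 15 UMIs, lay above the fibroblasts. Over all CIA mice the level of Slpi was 453 CPM in macrophages and 409 CPM in fibroblasts. The Hp ratio was 20.4, 5.16 and 17.2 in macrophages and 33.1, 0 and 15.2 in T cells, and its level over all CIA mice was 1253 CPM in granulocytes, 446 CPM in fibroblasts and 381 CPM in macrophages. Slpi and Hp were thus not set apart from macrophages and T cells as Saa3 was, and the part of RNA from other cells in these 2 calls was not tested. In Basal III cells of the CIA mice, Saa3 was at 612 CPM (15 UMIs in 14 cells), against 1270 CPM in CIA fibroblasts. For Retnlg the ratio was 29.5, 8.31 and 28.9 in granulocytes, 50.8, 14.2 and 48.5 in T cells and 55.1, 35.1 and 50.0 in fibroblasts. For Ifitm6 it was 5.68 to 15.0 in granulocytes, 7.12 to 28.7 in T cells and 10.6 to 22.3 in fibroblasts. In S1 and S5 the Retnlg and Ifitm6 ratios of fibroblasts thus lay near those of T cells, which should not make these genes, and the part of free granulocyte RNA in these 2 calls was not tested.

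Among the remaining genes that rose, Ifi27l2a, an interferon-induced mitochondrial protein, was at 55.8, 58.1 and 96.5 CPM in the healthy mice and 463, 329 and 469 CPM in the CIA mice (log2 fold change 2.58 ± 0.46, edgeR adjusted p = 0.0282). Its level in other joint cells was also higher in the CIA mice, as plain CPM over the pooled cells. In CIA it was at 2080 CPM in macrophages, 564 in granulocytes, 495 in T cells, 444 in endothelial cells and 445 in fibroblasts. In healthy mice these levels of Ifi27l2a were 155, 27.9, 0, 26.5 and 66.1 CPM. The level in CIA fibroblasts was thus not above those of the other types, and the part of RNA from other cells was not tested. Of 22 interferon-stimulated genes listed, 3 were tested and Ifi27l2a alone passed. Ifitm3, an antiviral membrane protein, was at 613, 542 and 603 CPM in healthy and 1045, 733 and 1221 CPM in CIA fibroblasts (0.73 ± 0.36, edgeR adjusted p = 0.334), and none of the 13 interferon gamma GTPases reached the count needed for a test. Enpp1, which makes pyrophosphate, rose by 2.33 ± 0.46 (edgeR adjusted p = 0.0399), and Ptn, the heparin-binding growth factor pleiotrophin, by 2.34 ± 0.48 (edgeR adjusted p = 0.0482). The lowest CIA mouse was at 239 CPM for Enpp1 and 243 CPM for Ptn, and the highest healthy mouse at 77.4 CPM for both.

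Among the genes that fell was Gsn, itself one of the 6 markers used for the label. Gsn (gelsolin, which severs and caps actin filaments, chr2:35256359-35307902) was at 13940 CPM in H3, 23223 in H4 and 11993 in H7, and at 1526 in S1, 299 in S3 and 1567 in S5. Its levels fell in all 3 CIA mice, with a log2 fold change of -3.85 ± 0.70 (edgeR adjusted p = 0.0282). A Gsn UMI was found in 66 of 73, 73 of 81 and 35 of 38 healthy cells and in 96 of 182, 10 of 56 and 105 of 160 CIA cells, although the CIA cells were deeper. Of the 8 fibroblast markers listed, Gsn was the only one called, and the median of the 8 was 0.59.

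Gpx3, the extracellular glutathione peroxidase (chr11:54902854-54910387), was at 1269, 1355 and 1568 CPM in the healthy mice and 330, 179 and 123 CPM in the CIA mice. It fell in all 3 CIA mice, with a log2 fold change of -2.75 ± 0.44 (edgeR adjusted p = 0.0276), and its healthy values were close together. Myoc, the secreted glycoprotein myocilin (chr1:162639150-162649694), was at 265, 832 and 169 CPM in healthy and 27.5, 15.0 and 27.4 CPM in CIA fibroblasts (-4.00 ± 0.63, edgeR adjusted p = 0.0276). Pcolce2, which enhances the trimming of procollagen, was at 516, 406 and 483 CPM in healthy and 133, 44.9 and 78.7 CPM in CIA fibroblasts (-2.41 ± 0.47, edgeR adjusted p = 0.0369). None of these genes overlapped between groups. Cytl1, a secreted protein of cartilage, was at 209, 1103 and 5067 CPM in the healthy mice and had no UMI in S1, S3 or S5, at least 409-fold lower against a floor of 3 UMIs over the CIA group. In S6, however, 2 of 9 cells held 86 Cytl1 UMIs, and with mice of 5 or more cells its log2 fold change was -1.25 (edgeR adjusted p = 0.798).

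Collagens, the main load-bearing product of fibroblasts, had higher values in the CIA mice without passing the adjusted threshold. Of 9 fibrillar collagen genes listed, 7 were tested and 0 were called, and the median log2 fold change of the 7 was 1.60. At an unadjusted p under 0.05, 6 were higher, against 10.6% of all genes tested. Among the 6 was Col2a1, the type II collagen of cartilage, which overlapped between groups. Of its UMIs 86.2% lay in a chondrocyte-like cluster of 11 cells, described below. Col1a1, the other chain of type I collagen, was at 1924, 5361 and 1207 CPM in H3, H4 and H7 and at 13206, 7656 and 10654 CPM in S1, S3 and S5. Its groups did not overlap, at a log2 fold change of 1.91 ± 0.59 (edgeR adjusted p = 0.148). Col5a2, which helps to set fibril width, had the values 321, 774 and 265 CPM in healthy and 1526, 912 and 1666 CPM in CIA fibroblasts (1.60 ± 0.46, edgeR adjusted p = 0.130). Col3a1, the type III chain, was at 4489, 8167 and 1665 CPM in healthy and 15434, 6938 and 16156 CPM in CIA fibroblasts and overlapped through S3 and H4. Serpinh1, the chaperone of collagen, was at 321, 271 and 265 CPM in healthy and 779, 673 and 1061 CPM in CIA fibroblasts, with a log2 fold change of 1.50 ± 0.36 (edgeR adjusted p = 0.0900). Plod2, which hydroxylates lysines of collagen for cross-linking, had a log2 fold change of 2.05 ± 0.59 (edgeR adjusted p = 0.131). In the list of 16 collagen processing genes, 8 were tested, with a median of 0.85. None was called higher, and the only call was Pcolce2, which fell. The 4 tested network collagens, of basement membranes and microfibrils, had a median of 1.39, and 0 were called.

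Dcn, the small proteoglycan decorin, which binds collagen fibrils, was at 14038, 26397 and 22031 CPM in healthy and 6028, 3798 and 8536 CPM in CIA fibroblasts. It did not overlap between groups, and its log2 fold change of -1.78 ± 0.54 did not pass (edgeR adjusted p = 0.144). Of the 9 small leucine-rich proteoglycans tested, 0 were called, and their median was 0.067, that of all genes being 0.063. The log2 fold change was 1.13 ± 0.47 for Bgn, biglycan, and 0.47 ± 0.51 for Lum, lumican. Chad, the cartilage protein chondroadherin, was at 69.7, 968 and 796 CPM in healthy and 344, 0 and 23.9 CPM in CIA fibroblasts (-2.15 ± 1.13, edgeR adjusted p = 0.381), and the members thus differed in direction.

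Lower values prevailed among complement and lipid-handling genes. The 5 tested complement genes all had negative log2 fold changes (median -1.12), and 0 were called. Clu, the chaperone clusterin, was at 404, 4064 and 3451 CPM in healthy and 344, 15.0 and 147 CPM in CIA fibroblasts (-3.85 ± 0.95, edgeR adjusted p = 0.0998), so that H3 lay near S1. Serping1, the inhibitor of the first complement component, was at 1073, 1606 and 941 CPM in healthy and 490, 284 and 746 CPM in CIA fibroblasts (-1.24 ± 0.42, edgeR adjusted p = 0.183). The lipid-handling list had 6 tested members, and its only call was Myoc, described above as a secreted glycoprotein. No other member was called. With Myoc included, 4 members were lower at an unadjusted p under 0.05, against 7.2% of all genes tested, and the list median was -1.63. Apod, a lipocalin, was at 697, 987 and 3547 CPM in healthy and 426, 74.8 and 209 CPM in CIA fibroblasts (-2.85 ± 0.75, edgeR adjusted p = 0.115). Plpp3, a lipid phosphatase, had a log2 fold change of -1.74 ± 0.44 (edgeR adjusted p = 0.106).

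Chemokine genes had their highest values in mouse S3, without a call. Ccl2, which draws monocytes, was at 530, 310 and 217 CPM in the healthy mice and at 715, 6385 and 756 CPM in S1, S3 and S5 (log2 fold change 2.77 ± 0.87, edgeR adjusted p = 0.157). Ccl7, another monocyte chemokine, was at 516, 155 and 410 CPM in healthy and 504, 4770 and 445 CPM in CIA fibroblasts. S3 alone stood out for both genes. Cxcl1, a neutrophil chemokine, was at 1561, 639 and 1568 CPM in healthy and 1146, 3873 and 1187 CPM in CIA fibroblasts, and its log2 fold change turned from 0.62 ± 0.59 to -0.12 without S3. Cxcl2, another neutrophil chemokine, was at 153, 0 and 314 CPM in healthy and 353, 912 and 517 CPM in CIA fibroblasts. Its groups did not overlap, at a log2 fold change of 1.87 ± 0.80 (edgeR adjusted p = 0.269). Of 9 CXC chemokine genes listed 4 were tested, of 8 CC and CX3C chemokine genes 2 were tested, and 0 were called in either group.

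Stress and metabolic genes gave no call other than Gpx3. Mt1 and Mt2, the metal-binding metallothioneins, had log2 fold changes of 1.28 ± 0.46 and 1.08 ± 0.42 (edgeR adjusted p = 0.204 and 0.237), and Hif1a, the oxygen-regulated transcription factor, was at 97.6, 38.7 and 48.3 CPM in healthy and 266, 329 and 366 CPM in CIA fibroblasts. Its groups did not overlap, at 2.23 ± 0.49 (edgeR adjusted p = 0.0599). Immediate early genes, which respond within minutes to stimuli and to tissue handling, had a median of -0.35 over 19 tested members, and 0 of them passed even the unadjusted threshold. Ribosomal protein genes had a median of 0.075 over 56 tested members. Lubricin, encoded by Prg4 and secreted by lining cells, was at 3625, 6735 and 14406 CPM in healthy and 1779, 10049 and 4759 CPM in CIA fibroblasts (-0.63 ± 0.70, edgeR adjusted p = 0.681), and the groups overlapped over most of their range.

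**Figure D2:**
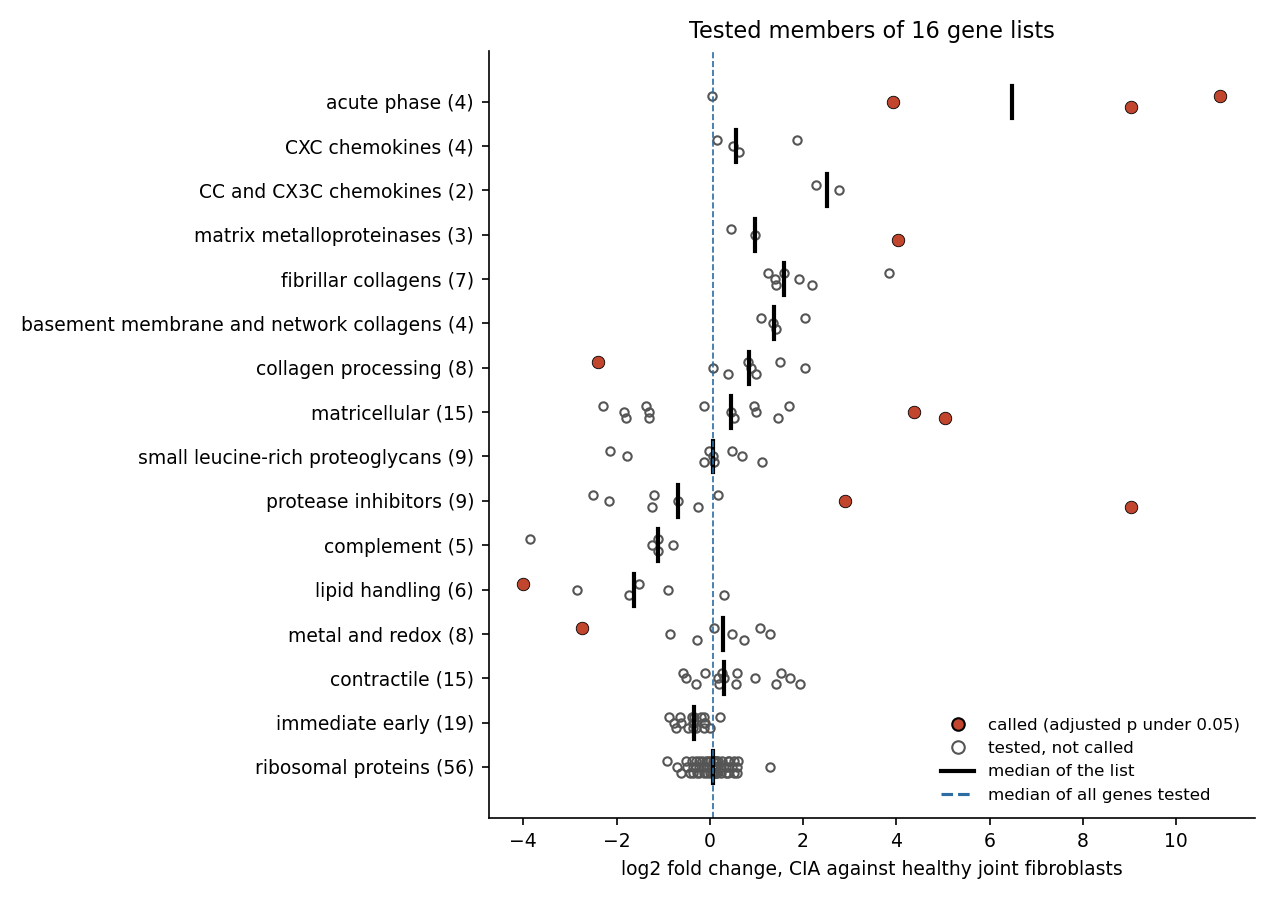
Log2 fold change (CIA against healthy joint fibroblasts, horizontal axis) of the tested members of 16 gene lists, with the number tested in brackets, called genes filled in red and the median of each list as a black bar. Fibrillar collagens (Col2a1 included) have a median of 1.60, complement of -1.12 and lipid handling (Myoc included) of -1.63, against 0.063 for all genes tested (dashed line).

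The mice with too few cells for a test were compared gene by gene, on plain CPM. In S6, from 9 cells with 19153 UMIs, 9 of the 12 genes that rose lay above every healthy mouse, whereas 310 of all 1014 genes (30.6%) did so. Postn was at 1096 CPM, Mmp3 at 1932 CPM and Timp1 at 2297 CPM in S6, each beyond the healthy range. Saa3 and Ifi27l2a had no UMI there, and Retnlg was within the healthy range. For 4 of the 5 genes that fell, S6 lay below every healthy mouse, against 316 of all genes (31.2%), and Gsn was at 888 CPM. In S8, which had only 4 cells and 2411 UMIs, 4 of the 12 and 5 of the 5 genes lay outside in the same directions, but 59.6% of all genes lay below every healthy mouse there.

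The share of fibroblasts among annotated joint cells was 42.2%, 50.9% and 52.8% in H3, H4 and H7. In S1, S3, S5, S6 and S8 it was 30.1%, 44.4%, 16.8%, 15.8% and 4.82%. The groups overlapped through S3 and H3. The mean was 48.6% ± 5.65 (SD, n = 3) in healthy and 22.4% ± 15.2 (SD, n = 5) in CIA mice, a difference of -26.3 percentage points that did not reach the threshold in a two-sided exact permutation test (p = 0.0714, the smallest possible being 0.0357). With granulocytes and neutrophils left out of the total, the difference was -21.2 points (exact permutation p = 0.107).

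Clustering of the 603 cells gave 13 clusters, which are described by their leading genes and not tested against each other, since all genes took part in the clustering. Under other settings 5 to 15 clusters were found, with an adjusted Rand index of 0.230 to 0.633 to the 13, so the boundaries were not firm. For most clusters only some of the 10 leading genes are named. Those of cluster 3, of 64 cells, were in order Cxcl5, Saa3, Ptx3, Adh5, Gm43780, Dqx1, Il6, Ccl7, Ccl2 and Hp. Beside Adh5, Gm43780 and Dqx1 they are genes of chemokines, a cytokine and acute phase proteins. Cluster 3 held 0 cells of any healthy mouse, 18 of S1, 39 of S3, 5 of S5 and 2 of S6, so that 69.6% of the fibroblasts of S3 were in it. It held 75.0% of all Saa3 UMIs, 50.6% of Hp UMIs, 39.7% of Mmp3 UMIs, 56.5% of Il6 UMIs and 87.7% of Cxcl5 UMIs. Saa3 was also present outside it, at 233 to 1717 CPM in S1, S3 and S5, against 4928 to 14906 CPM inside. Mmp3 was at 1944, 2428 and 2489 CPM outside and at 16636, 7981 and 14906 CPM inside.

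The other clusters resembled known joint stroma to different degrees. Cluster 8 (93 cells) was led by Kera, Tnmd, Mstn, Thbs4 and Fmod and was tenocyte-like, with 58 cells of S5 and 26 of S1. Cluster 1 (11 cells) was chondrocyte-like, led by Col9a1, Cnmd, Matn3 and Col2a1, and held 86.2% of all Col2a1 UMIs. The higher Col2a1 level of S1, at 2691 CPM, went with the 8 cells that S1 had there. Cluster 12 (12 cells, 11 of them from S1) was pericyte-like, led by Rgs5 and Tagln. Cluster 2 (38 cells) was led by Msmp, Pla2g2a, Col10a1, Cytl1, Clu and Chad, a mixture that was left unnamed, and it held 91.0% of Cytl1 UMIs. It had 10 cells of S1 and 2 of S5, in which no Cytl1 UMI was seen.

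Cluster 5 (70 cells) was led by Inmt, C7, Gdf10, Cygb and Gpc3 and held 39.8% of Gsn UMIs. It took in 23.3%, 32.1% and 13.2% of the fibroblasts of H3, H4 and H7, and 6.0%, 1.8% and 5.6% of those of S1, S3 and S5. Cluster 9 (64 cells) was led by Prpf18 and A330069E16Rik. Scara5, Cd55, Nov, Fbn1 and Pi16 came after these, and several of them mark adventitial fibroblasts. Cluster 10 (41 cells) was led by Gfod2, followed by Cfd, C4b, Cygb, Irf1, Gas6, Lpl, Apoe and Cxcl12. Cluster 13 (31 cells) was led by Gpx3 and Dync1i2, with Prg4 and Tgfbi further down. It took in 20.5%, 1.2% and 21.1% of the fibroblasts of H3, H4 and H7, and 1.65%, 0% and 1.25% of those of S1, S3 and S5. The part of cell numbers in clusters 5 and 13 in the lower Gsn and Gpx3 levels was not tested. Cluster 4 (50 cells) was led by the cell division genes Ube2c, Cenpf, Prc1 and Top2a, and cluster 6 (39 cells) by Dqx1, Cxcl2 and Pdpn. Cluster 7 (64 cells) was led by haemoglobin genes and cluster 11 (26 cells) by immunoglobulin genes, which fibroblasts do not make. Doublets were not removed, and 88 of the 603 cells had over 2000 UMIs.

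Differences between groups were also read inside clusters, as a description of cells of like profile. In 5 clusters (2, 5, 7, 9 and 10) each group had 10 or more cells. Gsn was lower in CIA cells in 5 of 5 clusters with 95% Poisson intervals apart, at 30716 against 7279 CPM in cluster 5 and 18696 against 3235 CPM in cluster 9. Gpx3 was likewise lower in 5 of 5 with intervals apart, at 4506 against 165 CPM in cluster 10. Postn was higher in 5 of 5 clusters and with intervals apart in 4, at 44.7 against 2543 CPM in cluster 9. Ifi27l2a was higher in 5 of 5 and with intervals apart in 4, and Mmp3 was higher in 4 of 5 and with intervals apart in 3. Saa3 had intervals apart in 1 of the 5 clusters and Slpi, Tnc and Hp in 0. Over all 17 genes and 5 clusters, 75 of 85 pairs had the direction of the mouse-level call, 32 of these had intervals apart, and 0 pairs were apart in the opposite direction. These are cells of several mice pooled within a group, the genes took part in the clustering, and the intervals cover counting error only. The 17 genes were called from these same cells, so the agreement in direction is no separate support for the calls. The shares over all genes tested were not computed.

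**Figure D3:**
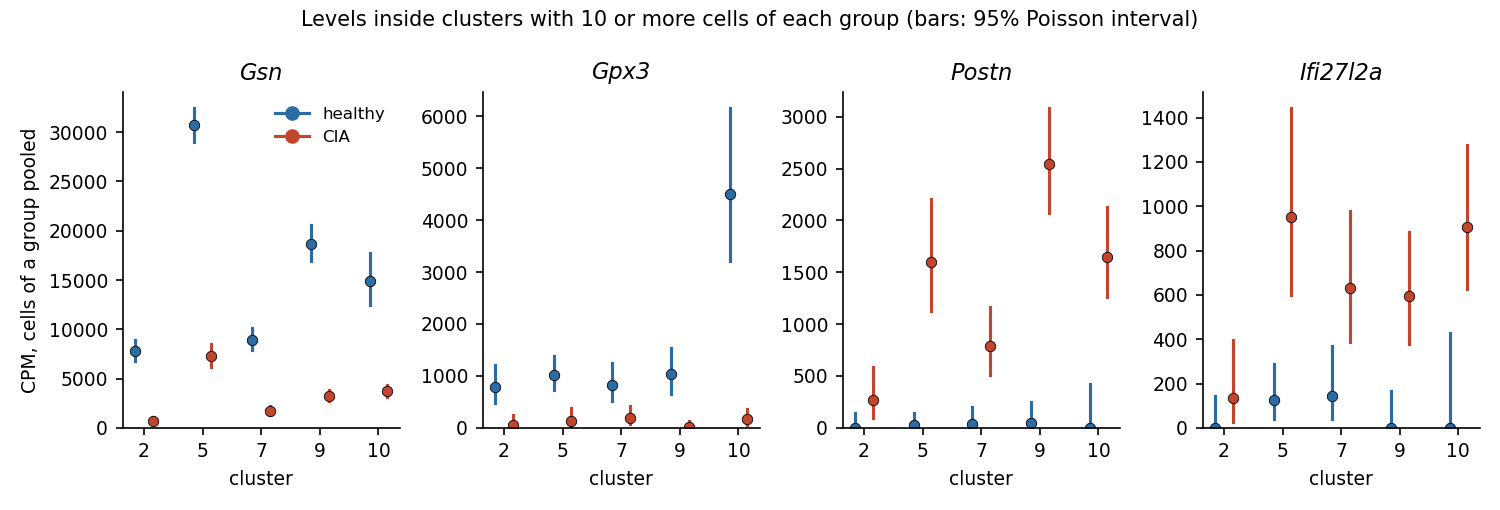
Level of Gsn, Gpx3, Postn and Ifi27l2a (plain CPM over the pooled cells of a group, linear axis, bars giving 95% Poisson intervals) in healthy (blue) and CIA (red) cells of the 5 clusters with 10 or more cells of each group. Gsn and Gpx3 are lower in CIA cells in all 5 clusters, and Postn is higher in 4 of them with intervals apart.

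The last question was whether the CIA effect in joint fibroblasts differed from that in fibroblasts of muscle and skin of the same study. The interaction of organ and disease was tested by edgeR with 3 healthy and 3 CIA mice for joint and 4 and 4 for muscle, on levels scaled over both organs. Of 1284 genes, 6 (0.467%) had a lower CIA effect in joint than in muscle at an adjusted p under 0.05, and 0 had a higher one, with 102 genes at an unadjusted p under 0.05 in either direction. Gsn had a log2 fold change of -3.84 in joint and 0.48 in muscle, a difference of -4.32 ± 0.77 (edgeR adjusted p = 0.0251). In muscle it was at 6106, 8634, 3982 and 11463 CPM in healthy mice H3, H4, H6 and H7 and at 14692, 6908, 10566 and 8918 CPM in CIA mice S1, S2, S5 and S6. The muscle groups overlapped, whereas the joint groups did not.

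Gpx3 differed by -3.19 ± 0.64, with a log2 fold change of 0.44 in muscle, and Apod by -4.42 ± 0.95, with 1.57 in muscle (edgeR adjusted p = 0.0363 for both). C7, a terminal complement component, differed by -3.99 ± 0.86 and Dpep1, a membrane dipeptidase, by -4.61 ± 0.99. C7 was at 315, 285 and 107 CPM in healthy and 19.7, 32.6 and 7.47 CPM in CIA joint fibroblasts. The difference of Cytl1, -14.4, comes from a joint group at 0 and is not a size. None of the 6 genes was called in muscle itself. A fit with the mouse as a replicate block kept only the mice that gave both a joint and a muscle sample (H3, H4, H7, S1 and S5). It called 78 genes, 15 with a higher and 63 with a lower effect in joint, and these included all 6. In the same mice without the block, far fewer genes were called. Without H4, S3 or S5, 0 genes were called. The effect of Ifi27l2a was 2.58 in joint and 2.34 in muscle, a difference of 0.24 ± 0.66 (edgeR adjusted p = 0.954). For Postn the difference was 2.05 ± 2.08 (edgeR adjusted p = 0.813), which leaves a wide range.

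**Figure D4:**
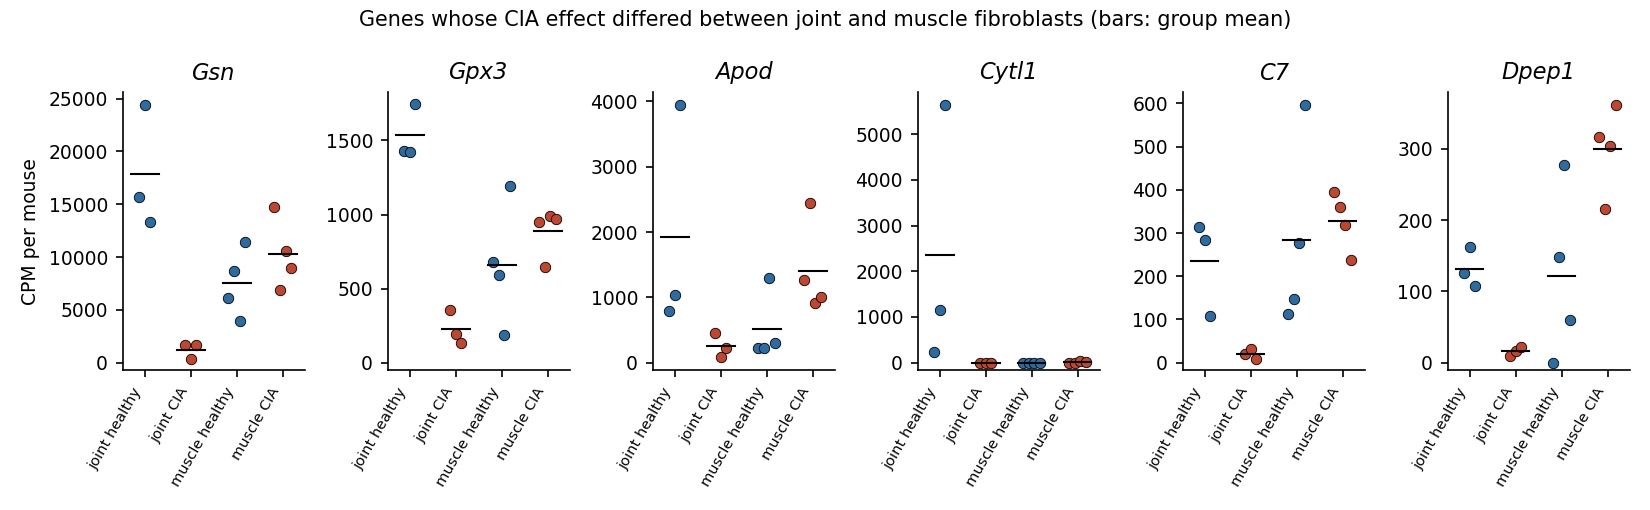
CPM per mouse (linear axes, scaled over both organs) of the 6 genes whose CIA effect differed between joint and muscle fibroblasts, with short lines for group means. In joint the CIA mice (red) lie below the healthy mice (blue) for every gene, as for Gsn at 326 to 1711 against 13354 to 24414 CPM, and in muscle the groups overlap.

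Against skin, with 4 healthy and 5 CIA mice, 0 of 986 genes were called by edgeR and 0 by DESeq2, and 85 genes (8.62%) had an unadjusted p under 0.05. Gsn differed by -2.56 ± 0.80 and Gpx3 by -3.54 ± 1.09 (edgeR adjusted p = 0.364 for both), and Apod by -4.12 ± 0.87 (edgeR adjusted p = 0.151). Mmp3 differed by 3.45 ± 1.10 in the other direction, with a log2 fold change of 4.07 in joint and 0.62 in skin (edgeR adjusted p = 0.364). Within skin, Gsn had a log2 fold change of -1.18 (edgeR adjusted p = 0.598), Apod of 1.37 and Gpx3 of 0.88. Timp1 had one of 5.79 in skin (edgeR adjusted p = 0.352). Saa3 had one of 8.15 in skin (edgeR adjusted p = 0.414), where it was at 485, 13232, 46.5, 0 and 0 CPM in S1, S2, S3, S5 and S8 and at 0 in 3 of 4 healthy mice. Postn and Ifi27l2a had log2 fold changes of 2.47 and 2.90 in skin, and their difference from joint did not pass the threshold.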

How the data were processed

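Single-cell RNA was measured by Seq-Well in male DBA1/J mice. Per the study's methods, the authors aligned reads to GRCm38 with STAR and the Drop-seq tools, whereas the submitters' processing notes list bcl2fastq, Picard and STAR with the builds GRCh38 and mm9. The authors deposited UMI counts per gene and cell, not normalised, for 34586 genes and 13240 cells, with a cell type, organ and disease label for 12096 cells. Fibroblasts of the joint were taken from these labels, and no cell type was rebuilt.

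For each mouse the UMI counts of its joint fibroblasts were added up, and mice with 10 or more cells entered edgeR (4.0.16, on R 4.3.3) with its quasi-likelihood test, TMM factors, the default filterByExpr filter and Benjamini-Hochberg adjustment at 0.05 over all genes tested. SEs of log2 fold changes were derived from F. CPM values of single genes and lists use library sizes after TMM, and plain CPM is named as such or given per cell type or cluster. The disease effects of organs were compared as an interaction, without a block. Samples of 2 organs that share a mouse ID came from 1 animal, and the fit with the mouse as a replicate block is given beside that result. Deviations from group means of the same mouse in joint and muscle correlated at -0.17 to 0.16, and in joint and skin at -0.10 to 0.04. The study's own model of single cells (scVI), which treats cells as replicates, was not repeated. Doublets were not removed here. Shares were compared by exact permutation over mice. Subsets were obtained with scanpy 1.11.5 (1000 variable genes, 15 principal components, 15 neighbours, Leiden resolution 1). Python 3.11.15, numpy 2.4.6, scipy 1.17.1 and matplotlib 3.10.9 were used for the rest. The edgeR fits were tested on simulated data.

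Depth limited the fit to genes with enough UMIs per mouse, and floors and Poisson intervals cover counting error only. Nothing beyond the mouse labels says how separate the samples were, so p-values measure the spread between these mice. The genes named were every called gene, the called members and up to 4 most abundant members of each list, marker genes and the called genes of each interaction. Genes out of the 10 leading ones of each cluster were named as well. The members and lists were chosen with earlier results of these data known. Alternatives were DESeq2 1.42.0, RLE factors, plain library size, no filter, 5 or 20 cells per mouse, the experiment as a term or alone, leaving out deep cells or cells with chondrocyte UMIs, other cluster settings, and each mouse left out in turn. Leaving out the 5 erythroid genes was added after seeing the data. Promoter windows were taken from RefSeq (GRCm38.p6).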

Additional observations from a re-analysis of the deposited data

Results flagged for a closer look

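The CIA effect differed between joint and muscle fibroblasts by a test of the difference itself (edgeR, interaction of organ and disease) for 6 genes, by a log2 value of -4.32 for Gsn, -3.19 for Gpx3, -4.42 for Apod, -14.4 for Cytl1, -3.99 for C7 and -4.61 for Dpep1, each lower in joint. All 6 were also called with the mouse as a replicate block, a fit that kept only H3, H4, H7, S1 and S5. In these mice without the block far fewer genes were called, and RLE factors called only some of the 6. The value of Cytl1 rests on a joint group with no UMI.

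In muscle, which served only as the comparison, single mice stood apart from the rest of their group. Gpx3 was at 647.6 CPM in S2, below the other CIA mice, and Apod at 1296 CPM in H6, above the other healthy mice. Chance sets 1 sample apart in this way in about 1 in 20 groups.

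Values beyond every healthy mouse were also seen in the CIA mice with too few fibroblasts for a test. In S6 (9 cells), Postn was at 1096 CPM, Tnc at 627, Hp at 940, Mmp3 at 1932, Slpi at 365, Enpp1 at 418, Ptn at 365 and Timp1 at 2297 CPM. In S8 (4 cells), Retnlg was at 4562 CPM from 11 UMIs and Enpp1 at 1244 CPM from 3 UMIs. Over all 1014 genes tested, 30.6% lay above every healthy mouse in S6 and 31.4% in S8.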

How the results depend on the processing

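All 17 genes called in joint fibroblasts kept their direction in each of the 18 alternatives in which they were tested, and the number of calls did not hold. Against 17 in the reported fit, 53 genes were called by DESeq2, 100 with no filter on low counts, 8 with plain library size, 73 within the experiment CIA and 1 within 2CIA (each with an arm of 1 mouse, assumed to vary like the others), and 3 without cells of 2 or more chondrocyte UMIs, where 9 of the 17 genes could still be tested. Leaving out each mouse in turn gave 0 to 43 calls, with 0 without H4 or H7 (296 and 143 genes at an unadjusted p under 0.05), 1 without H3, 10 without S1 and 43 without S3. Leaving out cells that hold a granulocyte UMI could not be run, since too few cells remained. The log2 fold change of Cxcl1 ranged from -0.12 (without S3) to 1.06 when mice were left out, and that of Prg4 from -1.29 to 0.073 (without H7), with 0.46 within 2CIA. Of the 6 genes that differed between joint and muscle, RLE factors called 2, and 78 genes were called with the replicate block, 1 in the same mice without it, and 0 to 6 with a mouse left out (0 without H4, S3 or S5 and 1 without S6). Against skin, no filter gave 5 calls, and 0 were called in the other alternatives, the replicate block included. A resolution of 0.5 gave 5 clusters in place of 13. The cause of these changes was not tested. Depth was least in H7, with 38642 UMIs.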

Other observations

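Other gene groups of the joint fibroblasts gave values without a call. The contractile and cytoskeletal list had 5 members higher at an unadjusted p under 0.05 and 0 lower of 15 tested, with a median log2 fold change of 0.31. Over all genes tested, 10.6% were higher and 7.2% lower at this threshold. Lgals1, galectin 1, which binds glycans of the cell surface, was at 725, 1239 and 748 CPM in healthy and 1861, 2602 and 2922 CPM in CIA fibroblasts, without overlap (1.42 ± 0.38, edgeR adjusted p = 0.129). Tnfaip6, a hyaluronan-binding protein induced by tumour necrosis factor, was at 418, 58.1 and 241 CPM in healthy and 532, 1316 and 893 CPM in CIA fibroblasts (1.79 ± 0.62, edgeR adjusted p = 0.183). Nfkbia, the inhibitor of NF-kB, was at 1840, 1626 and 1979 CPM against 1751, 1211 and 2217 CPM, and the groups overlapped.

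Angptl7, a secreted protein of tendon and eye, had one of the lowest p-values among genes that were not called. It was at 711, 4045 and 2510 CPM in H3, H4 and H7 and at 179, 0 and 181 CPM in S1, S3 and S5 (log2 fold change -4.16 ± 0.88, edgeR adjusted p = 0.0509). The tenocyte list to which it belongs did not move one way, and Thbs4, the thrombospondin of tendon, was at 55.8 to 503 CPM in healthy and 164 to 1351 CPM in CIA fibroblasts. Genes of cell division were too low for a test except for 1 of 16, and their summed level was 290 to 321 CPM in healthy and 669 to 1331 CPM in CIA fibroblasts. The groups did not overlap in this sum, which was not tested.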
